A study of Mus musculus with 40 samples.

Results

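The genes described here are 10 genes of NAD salvage and nicotinamide handling in mouse liver: Nampt, Nmrk1, Nmrk2, Nmnat1, Nmnat3, Naprt, Nadsyn1, Nadk, Nadk2 and Nnmt. They were chosen by name, with earlier results of these data known, and they are 10 of the 55487 genes in the deposited count table. Each was found once by its symbol. All 10 passed the filter on low counts, as did 20297 genes altogether, but Nmrk2 passed only through HNKO libraries.

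The series asked how the liver transcriptome changes over days of feeding when hepatocytes lack Nampt. Hepatocyte-specific Nampt knockout mice (HNKO) carried floxed Nampt alleles and a Cre transgene under the promoter of albumin, a hepatocyte gene. Whether other cells of the liver also lost Nampt was not tested here. Their controls were floxed littermates without Cre, named wild-type (WT) in the labels. All were females on a C57BL/6JBomTac background, 9 weeks of age, fed a purified diet for 3, 6, 12 or 21 days before the whole liver was taken. The labels list these days as the age of the mice, while the methods describe them as days of feeding, and the latter reading is used here. Each library came from the liver of 1 mouse. The WT groups held 5, 4, 5 and 5 libraries at days 3, 6, 12 and 21, and the HNKO groups held 5, 5, 6 and 3. A further 2 HNKO libraries of day 21 were described as having failed quality control and were left out, which leaves 38. Total RNA was sequenced after removal of ribosomal RNA, and the libraries held 16151037 to 64181492 counts, with a median of 26466478.

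Cells break NAD down in signalling reactions that release nicotinamide, and they rebuild it by salvage. Nampt makes nicotinamide mononucleotide from nicotinamide, and the Nmnat enzymes join this to an adenylyl group to give NAD. Nicotinamide riboside enters through the kinases Nmrk1 and Nmrk2, and nicotinic acid enters through Naprt and is completed by the synthetase Nadsyn1. Nadk in the cytosol and Nadk2 in mitochondria phosphorylate NAD to NADP. Nnmt methylates nicotinamide and so takes it out of salvage. Liver is also an organ that can make NAD from tryptophan.

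Some libraries stood apart from the rest before any comparison was made. Genes of the circadian clock split WT at day 6 evenly, libraries 8 and 10 against 27 and 28, and set library 16 of WT at day 12 and library 29 of HNKO at day 6 apart from their groups. Levels here are log2 counts-per-million (log2 CPM), so that a difference of 1 is a doubling. Arntl, a core activator of the clock, was at 1.27, 1.22 and 1.27 log2 CPM in libraries 8, 10 and 16. The other WT libraries of day 6, 27 and 28, held Arntl at 4.59 and 4.76 log2 CPM. Dbp, a clock output gene that peaks in opposite phase, was at 7.32, 7.06 and 7.51 log2 CPM in libraries 8, 10 and 16. In libraries 27 and 28 Dbp was at 2.84 and 3.99 log2 CPM. HNKO library 29 held Arntl at 4.88 and Dbp at 1.35 log2 CPM, where the rest of its group held Arntl at 1.73 to 2.83 and Dbp at 5.97 to 6.79 log2 CPM. Smaller steps were seen in other groups as well, among them the following. HNKO libraries 35 and 36 of day 12 held Arntl at 3.87 and 4.06 log2 CPM, and the rest of their group at 1.56 to 3.31. HNKO library 37 of day 21 held Arntl at 3.43 log2 CPM, beside 1.92 and 1.76 in libraries 38 and 40. WT library 5 of day 3 held Arntl at 3.43 log2 CPM, and the rest of its group at 3.98 to 4.51. The time of day of collection is not given in the sources used here. A separate set of 7 libraries (11, 13, 19, 21, 23, 32 and 37) held transcripts of skeletal muscle, as described with Nmrk2. The library numbers in the titles run from 1 to 41, and the order of days in them restarts at 22. Libraries up to 21 and from 22 on are called label series 1 and 2 here, a reading of that order and not a batch named in the labels. The HNKO libraries of day 21 that were used all belong to series 2.

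HNKO livers held less mRNA of several salvage genes than WT livers, and edgeR and DESeq2 called 0 of the 10 higher at any day. Of all tested genes edgeR called 2.95%, 8.42%, 4.56% and 2.21% higher at days 3, 6, 12 and 21. A count of 0 of 10 is near those shares. At an unadjusted p under 0.05, 1 of the 10 was higher, Nmrk2 at day 12, which passed the filter only through HNKO libraries. At that threshold 4965 of the 20297 tested genes passed at day 12, in either direction. Calls are edgeR tests with a p adjusted over all 20297 genes below 0.05. At day 3, 2 of the 10 genes were called lower (Nampt and Nadk2), where 1.71% of all tested genes were. At day 6, 5 of 10 were called lower (Nampt, Nmnat1, Nmnat3, Nadk and Nadk2), against 4.37% of all tested genes. At day 12, 2 of 10 were called lower (Nampt and Nadk2), against 3.27%. With 1 library left out, the counts at days 3 and 12 each ran from 0 to 2. At day 21, with 3 HNKO libraries, edgeR called 0 of 10, against 0.916% of all tested genes called lower. At an unadjusted p under 0.05 the count at day 21 was 4, where 3655 of the 20297 tested genes passed in either direction. DESeq2 also called 0 at day 21. In the mean of the 4 days, 6 of 10 were called lower (Nampt, Nmnat1, Nmnat3, Naprt, Nadk and Nadk2), against 17.3% of all tested genes. The median log2 fold change of the 9 genes other than Nmrk2 was -0.19, -0.43, -0.17 and -0.25 on days 3, 6, 12 and 21. Over all tested genes the medians were 0.01, -0.01, 0.00 and -0.01 on the same days.

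**Figure D1:**
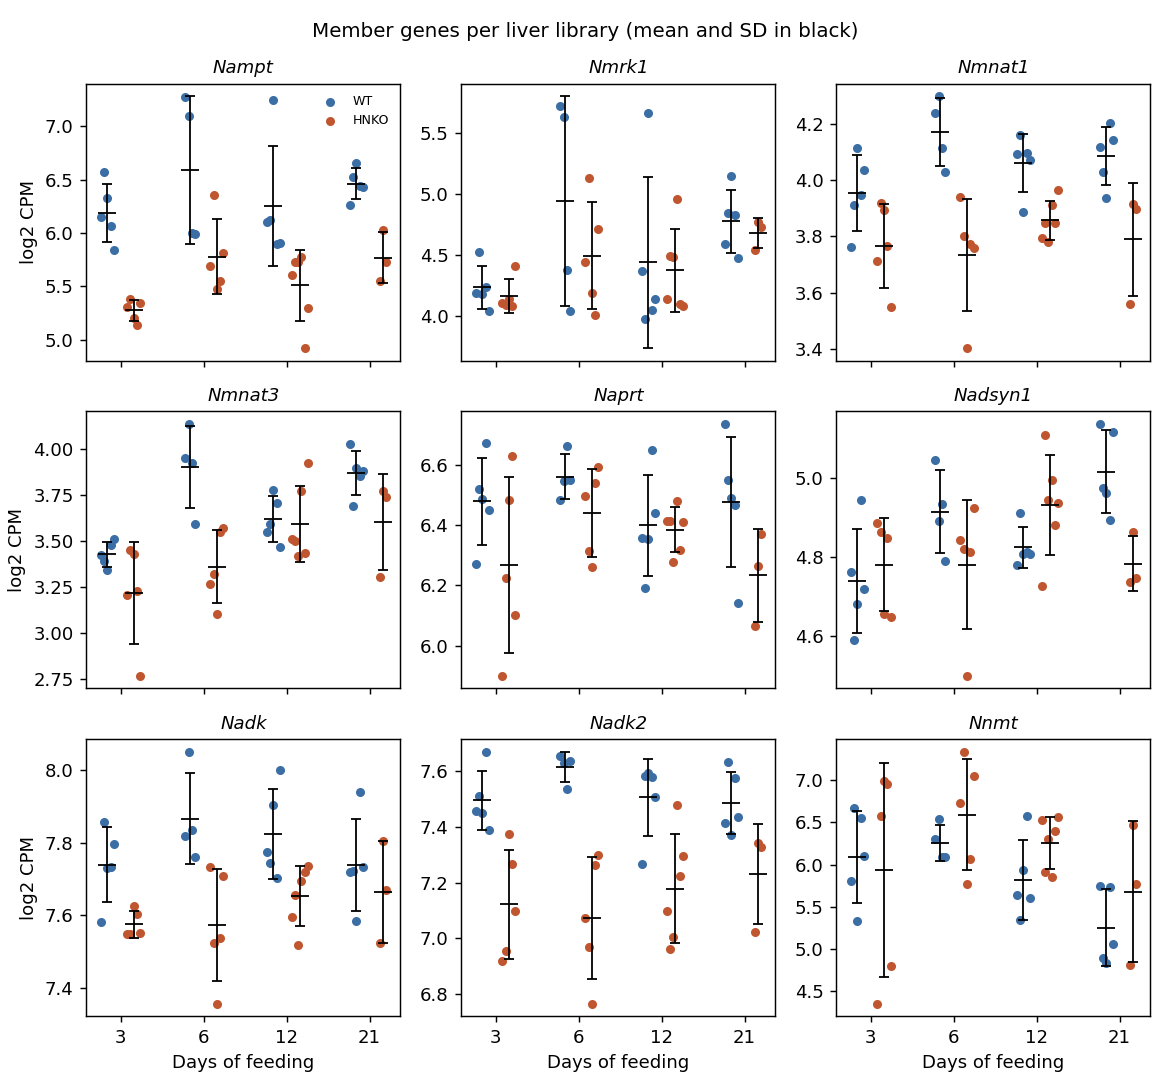
Log2 CPM of 9 of the 10 genes in each of the 38 liver libraries by days of feeding, with WT in blue and HNKO in orange; black bars are the mean and SD of a group. All 5 HNKO values of Nampt at day 3 lie below all 5 WT values, and the WT values of Nampt and Nmrk1 at days 6 and 12 are spread widely.

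The libraries themselves showed the same direction. At day 3 every HNKO library lay below every WT library for 2 of the 10 genes, Nampt and Nadk2, against 1.8% of all tested genes. At day 6 this held for 4 of 10 (Nmnat1, Nmnat3, Nadk and Nadk2), against 4.68%. At day 12 it held for 1 of 10, Nampt, against 2.14%. At day 21 it held for 4 of 10 (Nampt, Nmnat1, Nadsyn1 and Nadk2), against 6.7%. No gene of the 10 lay above without overlap at any day. Of the 20297 tested genes 468, 1640, 538 and 1471 did so at days 3, 6, 12 and 21. In bulk liver, fewer cells of a type and less RNA per cell cannot be told apart, so a lower level may come from either.

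**Figure D2:**
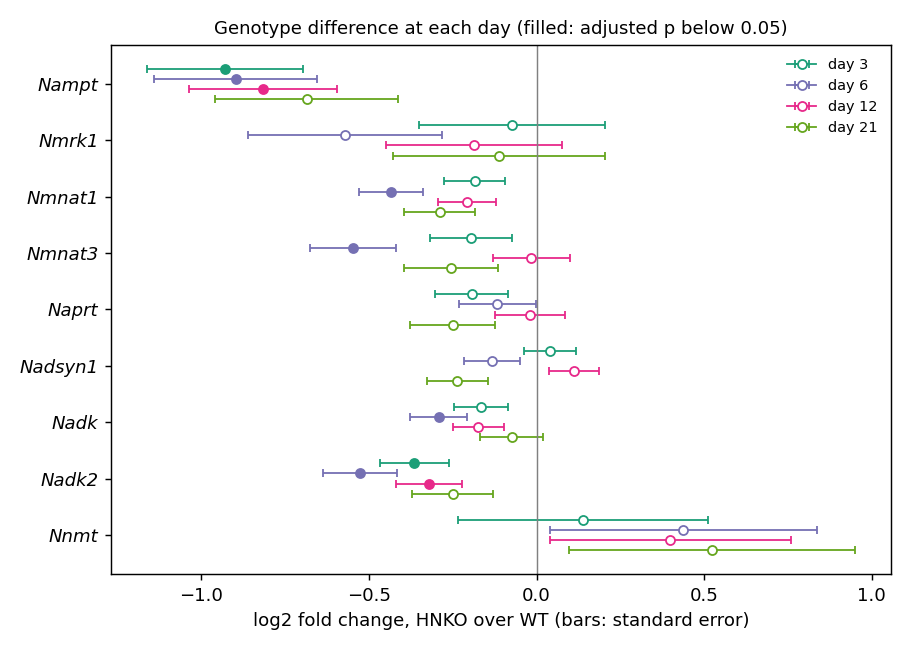
Log2 fold change of HNKO over WT for 9 of the 10 genes at each day, with the standard error as a bar and filled points for an adjusted p below 0.05. Every point of Nampt, Nmrk1, Nmnat1, Nmnat3, Naprt, Nadk and Nadk2 lies below 0, with Nmnat3 and Naprt at -0.02 at day 12. The points of Nadsyn1 lie on both sides of 0. The fitted points of Nnmt lie above 0, while the mean log2 CPM of Nnmt at day 3 was lower in HNKO.

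Nampt, the gene deleted in hepatocytes, was lower in HNKO liver at every day and was not absent. At day 3 WT libraries held 5.84, 6.06, 6.15, 6.32 and 6.57 log2 CPM, and HNKO libraries held 5.14, 5.21, 5.31, 5.35 and 5.38 log2 CPM. Every HNKO library lay below every WT library. Nampt fell by 0.93 on the log2 scale (SE 0.23; adjusted p = 0.0193), to 52.5% of the WT level. At day 6 WT libraries held 5.99, 6.00, 7.09 and 7.28 log2 CPM, and HNKO libraries held 5.48, 5.55, 5.69, 5.81 and 6.36 log2 CPM. Here 4 of 5 HNKO libraries lay below all WT libraries, and the WT values fell into a low and a high pair. At day 6 the gene fell by 0.90 (SE 0.24; adjusted p = 0.0128). The remaining transcript was counted over the whole gene, and reads were not assigned to single exons. Transcript from the deleted allele was therefore not told apart from intact transcript. The deletion was aimed at hepatocytes and the tissue was whole liver, so transcript of the other liver cells was counted too. The share of each source was not tested.

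At day 12 WT libraries held Nampt at 5.89, 5.90, 6.11, 6.12 and 7.24 log2 CPM, and the 6 HNKO libraries ran from 4.92 over a median of 5.67 to 5.77 log2 CPM. Again no HNKO library reached the lowest WT library. The fall was by a log2 fold change of -0.82 here (SE 0.22; adjusted p = 0.0208). At day 21 WT libraries held 6.26, 6.43, 6.44, 6.52 and 6.65 log2 CPM, and HNKO libraries held 5.55, 5.73 and 6.03 log2 CPM. The groups did not overlap, but the difference did not pass the test. Its fitted size at day 21 was -0.69 (SE 0.27; adjusted p = 0.161). Averaged over the 4 days Nampt fell by 0.83 on the log2 scale, to 56.2% of WT (SE 0.12; adjusted p = 2.61e-06). The test of whether the genotype difference in Nampt varied with the day gave an adjusted p of 1.0.

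The size of the Nampt difference at days 6 and 12 depended on how the clock was handled. Leaving out WT libraries 8, 10 and 16, those with the highest Nampt, gave Nampt a log2 fold change of -0.19 at day 6 (adjusted p = 0.633). At day 12 it was -0.47 without them (adjusted p = 0.0564). This leaves the genotypes unlike in the clock score, which is high where Arntl is high. At day 6 WT libraries were then at 1.95 and 2.27. HNKO libraries of day 6 ran from -2.27 over a median of -1.06 to 2.89, the last being library 29. At day 12 WT libraries were then at 1.84 to 2.63 and HNKO libraries at -2.33 to 1.09. With all 38 libraries kept, the genotypes were also unlike in the clock score at day 12, with medians of 1.87 in WT and -0.80 in HNKO. At day 21, where none of the 3 libraries belongs, the log2 fold change of Nampt without them was -0.68 and then passed the test (adjusted p = 0.0297). The mean over the 4 days was -0.57 without them and still passed the test (adjusted p = 6.86e-06). With the clock score, of 11 clock genes, as a covariate, the log2 fold changes of Nampt were -0.76, -0.81, -1.04 and -0.64 at days 3, 6, 12 and 21, and all passed the test. The highest adjusted p among these was 0.00496. Single libraries ended the call of Nampt. At day 3 the log2 fold change was -0.82 without library 5 (adjusted p = 0.0560). At day 6 it was -0.64, -0.74 and -0.80 without library 8, 10 or 29 (adjusted p = 0.106, 0.0683 and 0.0639). At day 12 it was -0.47 and -0.70 without library 16 or 35 (adjusted p = 0.142 and 0.0562). Without the 7 libraries holding muscle transcripts, the log2 fold changes at days 3 and 12 were -0.95 and -1.0 and did not pass (adjusted p = 0.0697 and 0.0618).

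The difference in Nampt had the same sign in both label series. The mean log2 CPM of HNKO minus WT at day 3 was -1.06 in series 1 and -0.83 in series 2. At day 6 it was -1.16 in series 1, which holds libraries 8 and 10, and -0.38 in series 2. At day 12 it was -0.80 in series 1 and -0.57 in series 2. At day 21 series 2 gave -0.67, and series 1 holds no HNKO library there. All 7 of these differences were below 0, as they were for Nadk and Nadk2. Of the 7, 6 were below 0 for Nmnat1, Nmnat3 and Naprt, 4 for Nadsyn1, 3 for Nmrk1 and 2 for Nnmt.

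Nmrk1, the nicotinamide riboside kinase expressed in liver, was not called at any day. At day 6 WT libraries held 4.05, 4.38, 5.63 and 5.72 log2 CPM, and HNKO libraries held 4.01, 4.20, 4.44, 4.71 and 5.13 log2 CPM. The high WT pair was libraries 8 and 10, and the groups overlapped. Nmrk1 had a log2 fold change of -0.57 at day 6 (SE 0.29; adjusted p = 0.203), and it was 0.33 without libraries 8, 10 and 16 (adjusted p = 0.445). At day 12 WT libraries held 3.98, 4.06, 4.14, 4.38 and 5.67 log2 CPM, and HNKO libraries ran from 4.09 over 4.32 to 4.96 log2 CPM. Library 16 was the highest WT value, and the rest of the groups overlapped. For day 12 the fit gave -0.19 (adjusted p = 0.707), and it was 0.27 without these 3 libraries (adjusted p = 0.367). Averaged over the days it was -0.24 (SE 0.14; adjusted p = 0.209), and 0.10 without these libraries (adjusted p = 0.453). The sign of the Nmrk1 difference thus turned without these 3 WT libraries, in a comparison unlike in the clock score as given for Nampt. Single libraries moved it as well, to -0.30 and -0.35 at day 6 without 8 or 10, and to 0.27 at day 12 and -0.12 in the mean of the days without 16. The mean log2 CPM of Nmrk1 in HNKO minus WT was -0.24, -0.89 and -0.30 in series 1 at days 3, 6 and 12, and 0.09, 0.09, 0.28 and 0.03 in series 2 at the 4 days. With the clock score as a covariate, the mean over the days was -0.20 and passed the test (adjusted p = 0.0218), as did days 6 and 12 (-0.44 and -0.42), while day 3 gave 0.11 (adjusted p = 0.666).

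Nampt and Nmrk1 varied together within the groups. Each library's deviation from its group mean was taken for this, over 38 libraries that differ in depth and in label series. Pearson's r between Nampt and Nmrk1 was 0.91 and Spearman's rho was 0.88. It was 0.95 in the 19 WT libraries and 0.80 in the 19 HNKO libraries. Within label series 1 it was 0.95 and within series 2 it was 0.75. Without libraries 8, 10 and 16 r was 0.75, and without the 2 farthest libraries, 8 and 16, it was 0.84. The relation was thus present without libraries 8, 10 and 16, and weaker. It was not tested without the other libraries that stood apart.

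Both genes also varied with the clock genes. Pearson's r of Nampt was -0.85 with Arntl, 0.83 with Dbp and 0.89 with Ciart, a clock repressor. Without libraries 8, 10 and 16 the values with Arntl and Dbp were -0.65 and 0.62. Nmrk1 gave -0.90 with Arntl and 0.87 with Ciart. Among the other members the clock gene with the strongest relation was Hlf for most, with r of 0.62 for Nadk2, 0.56 for Nmnat3 and 0.48 for Nmnat1. Of 16 clock genes tested, 0 were called at day 3 by edgeR or DESeq2. At an unadjusted p under 0.05 there were 4 of 16 at day 3, beside 4235 of the 20297 tested genes. Averaged over the days 3 of 16 were called lower, against 17.3% of all tested genes. Both tools called 0 higher, also 0 at an unadjusted p under 0.05, while edgeR called 19.2% of all tested genes higher. The 3 called lower were Hlf at -0.51, Cry1 at -0.50 and Cry2 at -0.30 log2 fold change. At single days Cry1 was called lower at days 6 and 12 (-0.93 and -0.66; adjusted p = 0.00657 and 0.0458). Beyond the clock score covariate, the part of the clock in the genotype differences of Nampt and Nmrk1 was not tested.

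**Figure D3:**
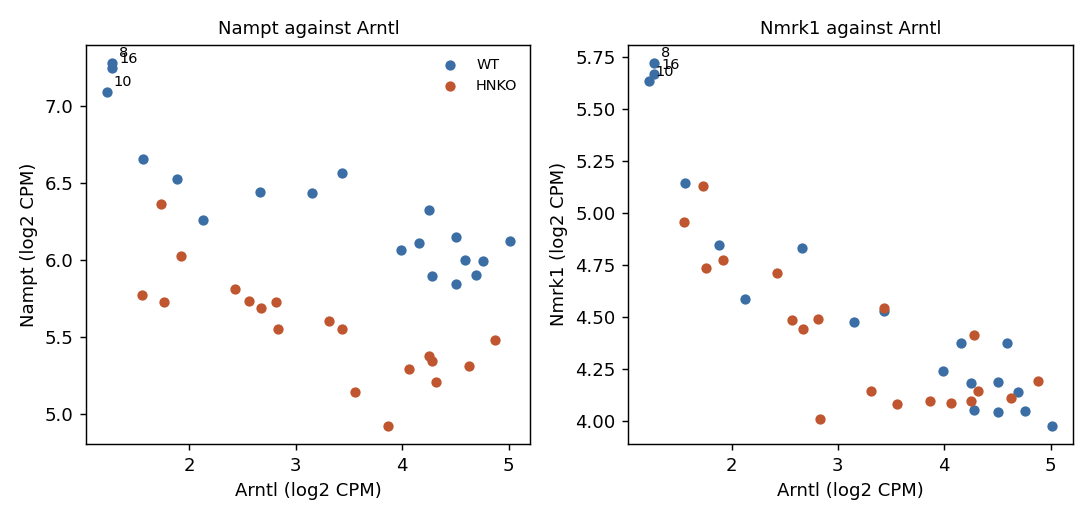
Log2 CPM of Nampt and of Nmrk1 against log2 CPM of Arntl in the 38 libraries, with WT in blue and HNKO in orange and libraries 8, 10 and 16 numbered. These 3 libraries hold the highest Nampt and little Arntl, and most HNKO points lie below the WT points at a like level of Arntl in the Nampt panel.

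Because Nampt and Nmrk1 varied together, the 250 bases before their RefSeq starts are shown, on GRCm38.p6. Both lie on the plus strand, Nampt at chr12:32820085-32820334 and Nmrk1 at chr19:18631766-18632015. They were searched on both strands for CACGTG, the E-box letters, which 6.02% of 32851 promoters hold. They were also searched for TTANNTAA, the core letters of a D-box, which 5.43% hold, and for AGGTCA, the letters of a nuclear receptor element, which 14% hold. The Nampt stretch held AGGTCA, 151 bases before the start and in capitals here, and neither of the other motifs. The Nmrk1 stretch held none of the 3.
Nampt: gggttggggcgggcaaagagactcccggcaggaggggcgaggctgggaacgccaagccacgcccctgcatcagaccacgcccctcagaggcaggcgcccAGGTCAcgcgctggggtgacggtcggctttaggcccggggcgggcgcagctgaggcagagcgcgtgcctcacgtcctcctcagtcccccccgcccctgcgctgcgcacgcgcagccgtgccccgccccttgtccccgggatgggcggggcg
Nmrk1: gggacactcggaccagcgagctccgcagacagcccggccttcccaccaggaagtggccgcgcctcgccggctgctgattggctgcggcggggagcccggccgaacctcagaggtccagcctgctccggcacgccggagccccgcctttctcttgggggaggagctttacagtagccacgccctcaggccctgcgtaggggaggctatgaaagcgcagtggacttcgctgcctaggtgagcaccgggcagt
Promoters were found for 7 of the 10 genes, and not for Naprt, Nadk2 and Nnmt. Nadk held CACGTG 40 bases before one of its starts and TTANNTAA 165 bases before the other. The stretches of Nmrk2, Nmnat1, Nmnat3 and Nadsyn1 held none of the 3 motifs. The starts differ between annotations: in GENCODE M21, used here for the gene spans, Nampt starts at 32819545, so that its stretch lies inside that span, and Nmrk1 starts at 18631950, inside its stretch. A match describes letters in this window and is not a bound site.

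Nmrk2, the nicotinamide riboside kinase of skeletal muscle, was at 0 counts in 32 of the 38 libraries. It was counted in WT libraries 19 and 21 of day 21, with 1 and 16 counts. It was counted in HNKO libraries 11, 13 and 32 of day 12, with 29, 12 and 3 counts. HNKO library 37 of day 21 held 27 counts. At day 12 the HNKO libraries together held 44 counts and the WT libraries 0. Library 11 alone held 29 of these. Nmrk2 passed the filter on low counts only through HNKO libraries 11, 13 and 37, so no fold change of it is given.

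The same libraries held transcripts of skeletal muscle. Ckm, the muscle creatine kinase, had 90 and 674 counts in libraries 19 and 21. It had 2166, 423 and 19 counts in libraries 11, 13 and 32, and 1305 counts in library 37. Library 23 of HNKO day 3 held 54 counts of Ckm and 0 of Nmrk2, and no other library held more than 4 counts of Ckm. The muscle marker Mylpf was called higher in HNKO at day 12, where 4.56% of all tested genes were. HNKO libraries 11 and 13 of that day held 832 and 132 counts of Mylpf. The rest of that HNKO group held 8 to 25 counts, and the WT libraries of day 12 held 16 to 19. In the mean of the days DESeq2 called Mylpf higher and edgeR did not. The markers Ckm, Acta1 and Tnnt3 passed the filter only through WT libraries 19 and 21 and HNKO libraries 11, 13, 23, 32 and 37. Myh4 passed it only through HNKO libraries 11, 13, 23 and 37. The calls of these markers are therefore not given. The summed level of the 5 in HNKO at day 12 ran from 0.310 over a median of 3.48 to 388 CPM, and in WT from 0.578 over 0.698 to 1.72 CPM. The most abundant marker in that HNKO group was Acta1, and as many as 3 of the 5 were at 0 in a library of it. The part of the muscle transcripts in the Nmrk2 counts was not tested. Of the stretches of 51 bases in Nmrk2 exons, 13.4% also occur elsewhere in annotated exons.

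**Figure D4:**
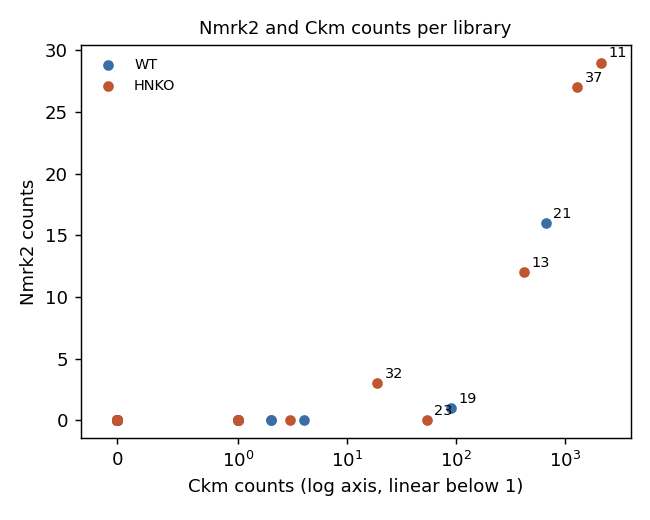
Nmrk2 counts against Ckm counts in each of the 38 libraries, with Ckm on a log axis that is linear below 1, WT in blue and HNKO in orange. The libraries with Nmrk2 counts are among the 7 numbered ones with 19 or more Ckm counts.

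Nmnat1, the nuclear adenylyltransferase that completes NAD, was lower in HNKO liver at day 6. WT libraries held 4.03, 4.11, 4.24 and 4.30 log2 CPM, and HNKO libraries held 3.40, 3.76, 3.77, 3.80 and 3.94 log2 CPM. All 5 HNKO libraries lay below the lowest WT library. Nmnat1 fell by 0.43 on the log2 scale (SE 0.10; adjusted p = 0.00275). With the 3 clock libraries 8, 10 and 16 left out it was -0.34 and did not pass the test (adjusted p = 0.0945). At days 3, 12 and 21 it was -0.19, -0.21 and -0.29, with adjusted p of 0.237, 0.129 and 0.121, and day 21 gave -0.16 without library 37. HNKO libraries below the WT mean numbered 5 of 5, 6 of 6 and 3 of 3 at these days. Over the 4 days together Nmnat1 fell by 0.28 (SE 0.05; adjusted p = 2.17e-05).

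Nmnat3, the mitochondrial adenylyltransferase, showed its difference at day 6. WT libraries held 3.59, 3.92, 3.95 and 4.14 log2 CPM, and HNKO libraries held 3.10, 3.27, 3.32, 3.55 and 3.57 log2 CPM. The groups did not overlap. Nmnat3 fell by 0.55 on the log2 scale (SE 0.13; adjusted p = 0.00445), and without libraries 8, 10 and 16 it was -0.41 (adjusted p = 0.132). At day 12 WT libraries ran from 3.47 to 3.78 log2 CPM and HNKO libraries from 3.42 to 3.92 log2 CPM, so that the groups overlapped widely. Nmnat3 differed by -0.02 there (SE 0.12; adjusted p = 0.955), and its sign turned in 12 of the 38 fits that left out 1 library. At days 3 and 21 it was -0.19 and -0.26, with adjusted p of 0.378 and 0.345, and these became -0.09 without library 23 and -0.10 without library 37. Over the 4 days together Nmnat3 fell by 0.25 (SE 0.06; adjusted p = 0.00196), and without the 7 libraries with muscle transcripts this was -0.17 (adjusted p = 0.0551). A test of whether the genotype difference varied with the day did not pass for Nmnat3 (unadjusted p = 0.0356, adjusted p = 1.0).

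Naprt, which starts NAD synthesis from nicotinic acid, differed little at single days. At day 3 WT libraries ran from 6.27 to 6.67 log2 CPM and HNKO libraries from 5.90 to 6.63 log2 CPM. At day 21 WT libraries ran from 6.14 to 6.74 and HNKO libraries from 6.07 to 6.37 log2 CPM. The groups overlapped at every day. Log2 fold changes of Naprt were -0.19, -0.12, -0.02 and -0.25 at days 3, 6, 12 and 21, and the lowest adjusted p among them was 0.294. Day 3 gave -0.11 without library 2 and -0.30 without library 22, day 6 gave -0.05 without library 29, and day 21 gave -0.15 without library 37. The sign at day 12 turned without library 13, 33 or 35 (7e-04, 0.0486 and 0.0145). Over the 4 days together Naprt fell by 0.15 on the log2 scale (SE 0.06; adjusted p = 0.0441). That call was lost in 21 of the 38 fits that left out 1 library, with adjusted p up to 0.161 and log2 fold changes from -0.15 to -0.11. The libraries were 2, 3, 5, 7, 10, 13, 19, 20, 21, 23, 24, 25, 27, 28, 29, 30, 33, 34, 35, 37 and 38. Naprt shares 277 exonic bases with Eef1d on the same strand, and 9.27% of its stretches of 51 bases occur elsewhere in annotated exons.

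Nadsyn1, the NAD synthetase that completes the route from nicotinic acid, was not called in any genotype comparison. At day 21 WT libraries held 4.89, 4.96, 4.97, 5.12 and 5.14 log2 CPM, and HNKO libraries held 4.74, 4.75 and 4.86 log2 CPM. The groups did not overlap, and the gap between them was narrow. Nadsyn1 differed by a log2 fold change of -0.24 at day 21 (SE 0.09; adjusted p = 0.145). At day 12 it was 0.11 (SE 0.07; adjusted p = 0.370), with 5 of 6 HNKO libraries above the WT mean. At days 3 and 6 it was 0.04 and -0.13, and the latter became -0.09 without library 8 and -0.05 without library 29. With 1 library left out, the value at day 3 ran from 0.0033 to 0.089. The sign of the difference in Nadsyn1 therefore varied between days, and the test of that variation gave an unadjusted p of 0.0209 and an adjusted p of 0.996. Averaged over the days the log2 fold change of Nadsyn1 was -0.05 (SE 0.04; adjusted p = 0.320), and from -0.065 to -0.022 with 1 library left out.

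Nadk2, the mitochondrial NAD kinase, was lower in HNKO liver at every day. At day 3 WT libraries held 7.39, 7.45, 7.46, 7.51 and 7.67 log2 CPM, and HNKO libraries held 6.92, 6.95, 7.10, 7.27 and 7.37 log2 CPM. No HNKO library reached the lowest WT library. Nadk2 fell by 0.36 on the log2 scale (SE 0.10; adjusted p = 0.0365). Leaving out library 2, 3, 5, 23, 24 or 25 ended that call, with adjusted p up to 0.125 and log2 fold changes from -0.38 to -0.32. The call also ended with no filter on low counts (-0.36, adjusted p = 0.077). Without the 7 libraries with muscle transcripts Nadk2 was not called at day 3 either. At day 6 WT libraries held 7.54, 7.63, 7.64 and 7.65 log2 CPM, and HNKO libraries held 6.77, 6.97, 7.07, 7.26 and 7.30 log2 CPM. The gap between the groups was wider here than at day 3. Nadk2 fell by 0.53 at day 6 (SE 0.11; adjusted p = 0.00160), and this passed the test in all 38 fits that left out 1 library and without libraries 8, 10 and 16 (-0.51; adjusted p = 0.0364).

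At day 12 WT libraries held Nadk2 at 7.27, 7.51, 7.58, 7.58 and 7.59 log2 CPM, and HNKO libraries ran from 6.96 over 7.16 to 7.48 log2 CPM. WT library 14 was the low value, and 4 of 6 HNKO libraries lay below it. Nadk2 fell by 0.32 at day 12 (SE 0.10; adjusted p = 0.0402). This call was lost in 14 of the 38 fits that left out 1 library (1, 11, 12, 13, 15, 16, 23, 30, 33, 34, 35, 38, 40 or 41), with adjusted p up to 0.106 and log2 fold changes from -0.32 to -0.28. It was also lost with no filter on low counts (-0.32, adjusted p = 0.083) and without the 7 libraries with muscle transcripts. At day 21 WT libraries held 7.37, 7.41, 7.44, 7.57 and 7.63 log2 CPM, and HNKO libraries held 7.02, 7.33 and 7.34 log2 CPM. The groups did not overlap, and the difference did not pass the test. Its log2 fold change was -0.25 at that day (SE 0.12; adjusted p = 0.266), and -0.14 without library 37. Over the 4 days together Nadk2 fell by 0.37 on the log2 scale (SE 0.05; adjusted p = 3.33e-06), to 77.6% of WT. This call passed in all 38 fits that left out 1 library.

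Nadk, the cytosolic NAD kinase, had smaller differences in the same direction. At day 6 WT libraries held 7.76, 7.82, 7.84 and 8.05 log2 CPM, and HNKO libraries held 7.36, 7.52, 7.54, 7.71 and 7.73 log2 CPM. The groups did not overlap, and the gap between them was narrow. Nadk fell by 0.29 on the log2 scale (SE 0.09; adjusted p = 0.0205). Without library 10, 29 or 30 the log2 fold change was -0.23, -0.22 or -0.26, with adjusted p of 0.113, 0.131 or 0.0612. With no filter on low counts it was -0.28 (adjusted p = 0.0821). Leaving out 8, 10 and 16 together gave -0.23 (adjusted p = 0.223). At days 3, 12 and 21 it was -0.17, -0.17 and -0.07, with adjusted p of 0.228, 0.154 and 0.747. The sign at day 21 turned without library 37 (0.011). Over the 4 days together Nadk fell by 0.18 on the log2 scale (SE 0.04; adjusted p = 0.00118).

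Nnmt, the methyltransferase that clears nicotinamide, was not called at any day. At day 3 WT libraries held 5.33, 5.81, 6.10, 6.55 and 6.67 log2 CPM, and HNKO libraries held 4.35, 4.80, 6.58, 6.96 and 6.995 log2 CPM. The HNKO libraries fell into a low pair (2 and 23) and a high group of 3. The group mean of Nnmt at day 3 was lower in HNKO, at 5.94 against 6.09 log2 CPM, while the fitted log2 fold change was 0.14 (SE 0.37; adjusted p = 0.879). The sign of the fitted value turned without library 4, 22 or 24 (-0.10, -0.09 and -0.01). At day 6 WT libraries held 6.09, 6.09, 6.30 and 6.54 log2 CPM, and HNKO libraries held 5.77, 6.06, 6.73, 7.05 and 7.34 log2 CPM. The HNKO libraries lay on both sides of the WT libraries. At days 6, 12 and 21 the log2 fold changes were 0.44 (adjusted p = 0.531), 0.40 and 0.52 (adjusted p = 0.567). Single libraries moved these values: day 6 gave 0.22 without library 7, day 12 gave 0.64 without library 33, and day 21 gave 0.08 without library 38 and 0.87 without library 37. At day 12 all 6 HNKO libraries lay above the WT mean, from 5.85 over 6.35 to 6.57 log2 CPM, and WT libraries held 5.34, 5.60, 5.64, 5.94 and 6.58 log2 CPM. The mean of the 4 days was 0.37 (SE 0.20; adjusted p = 0.135).

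Nnmt also had the widest spread between libraries of 1 group among the genes detected in every library. Its SD within groups was 0.66 on the log2 scale, and 87.6% of tested genes had a smaller one. The median over all tested genes was 0.32. Nmrk1 and Nampt followed with 0.45 and 0.38. The SDs of Nmnat3, Naprt, Nadk2, Nmnat1, Nadsyn1 and Nadk were 0.19, 0.17, 0.16, 0.14, 0.12 and 0.11. Nadk and Nadsyn1 thus varied least between the mice of a group.

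Levels of different genes were compared per length, as log2 of CPM per kilobase of exon (log2 RPKM). In the 19 WT libraries Nadk had the highest mean of the 10, at 5.88 log2 RPKM (SD 0.12). In WT libraries 5, 25 and 33 Nnmt lay above Nadk. By mean, Naprt (5.25, SD 0.16), Nnmt (5.18, SD 0.57) and Nadk2 (5.16, SD 0.11) followed. The order of these 3 did not hold beyond their spread: Naprt was above Nnmt in 9 of 19 WT libraries, and Nnmt above Nadk2 in 12 of 19. Nampt was next in WT at 4.02 log2 RPKM (SD 0.44), below Nadk2 in all 19 WT libraries. Then came Nadsyn1 at 3.15, Nmrk1 at 2.7, Nmnat1 at 2.46 and Nmnat3 at 1.37 log2 RPKM. Nmrk1 was above Nmnat1 in 12 of 19 WT libraries, so these neighbours did not differ beyond their spread. In the 19 HNKO libraries Nampt was at 3.22 log2 RPKM (SD 0.33), beside Nadsyn1 at 3.10, and above it in 13 of 19. In HNKO, Nnmt was at 5.51 log2 RPKM and above Nadk2 (4.79) in 16 of 19 libraries.

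Across the days of feeding few of the genes changed within a genotype. In WT liver the test over the 4 days called 1 of 10 genes, Nmnat3 (adjusted p = 0.0294), against 5.84% of all tested genes. Nmnat3 in WT was 0.45 higher at day 21 than at day 3 (SE 0.12; adjusted p = 0.0251). Leaving out any of libraries 1, 5, 8, 10, 19, 24, 25 or 41 left 0 of the 10 genes called over the days in WT, and leaving out library 16 gave 2, Nmrk1 and Nmnat3. With 8, 10 and 16 all left out, the 1 gene called was Nmrk1. Nadsyn1 was 0.28 higher in WT at day 21 than at day 3 (SE 0.08; adjusted p = 0.0329). Nnmt in WT was at 4.83, 4.89, 5.05, 5.73 and 5.75 log2 CPM at day 21, and its log2 fold change against day 3 was -0.86 (SE 0.38; adjusted p = 0.183). In HNKO liver edgeR called 0 of 10 genes over the days, against 7.9% of all tested genes. At an unadjusted p under 0.05 the HNKO count was 1 of the 9 genes other than Nmrk2, where 4646 of the 20297 tested genes passed. Without library 37 the adjusted HNKO count was 1, Nmnat3. For the interaction of genotype and day edgeR called 0 of 10 genes, and 0% of all tested genes. At an unadjusted p under 0.05 the interaction count was 2 of the 10 genes, where 966 of the 20297 tested genes passed. DESeq2 was not run for the interaction or for days within a genotype.

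Pairs of the genes other than Nampt and Nmrk1 varied together less closely. The next pairs by r over the 38 libraries were Naprt with Nnmt at 0.62, Nmnat1 with Nadk at 0.59, and Nmnat1 with Nmnat3 at 0.59. Nampt and Nnmt, which act on the same substrate, gave 0.11. Each gene other than Nmrk2 was also compared with 12599 tested genes. The genes most like Nampt were Usp2 at 0.94, Ankrd12 at 0.93 and Nmrk1 at 0.91. Those most like Nmrk1 were Usp2 at 0.93, Marveld1 at 0.93 and Ankrd12 at 0.91. Nampt and Nmrk1 thus had Usp2 and Ankrd12 in common among their nearest genes.

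The other members had nearest genes of their own. For Nmnat1 these were Emc6 at 0.81, Cops3 at 0.81 and Cox8a, a subunit of cytochrome c oxidase, at 0.80. For Nmnat3 they were Bckdhb at 0.76, Gsta3 at 0.72 and Serhl at 0.72. For Naprt they were Isoc2a at 0.85, Tmbim6 at 0.82 and 2410015M20Rik at 0.82. No member was among the nearest genes of these 3. For Nadsyn1 they were Slc2a2 at 0.66, Hhipl1 at 0.66 and Mecr at 0.63. For Nadk they were Fbp1, a gluconeogenic enzyme, at 0.74, Kyat3 at 0.71 and Ndufa10 at 0.71. For Nadk2 they were Akr1c14 at 0.89, Pon1 at 0.85 and Slco1b2, a hepatocyte uptake transporter, at 0.85. For Nnmt they were Cth at 0.91, Aass at 0.91 and Gls2, a glutaminase, at 0.89.

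The other genes around NAD were taken as lists. In the mean of the 4 days 17.3% of all tested genes were called lower and 19.2% higher, and at days 3 and 6 the share lower was 1.71% and 4.37%. Of 8 tested genes of the route from tryptophan, 1 was called lower at day 3, 2 at day 6 and 5 in the mean of the 4 days. At days 12 and 21 edgeR and DESeq2 called 0, with 3 lower at an unadjusted p under 0.05 at each. At that threshold 4965 and 3655 of the 20297 tested genes passed at these days, in either direction. None of the 8 was higher by edgeR, by DESeq2 or at an unadjusted p under 0.05. Afmid, the formamidase of that route, fell by 0.77 on the log2 scale in the mean of the days (SE 0.13; adjusted p = 2.12e-05). Ido2, Haao, Tdo2 and Kmo had mean log2 fold changes of -0.54, -0.42, -0.36 and -0.21. Like Nampt and Nadk2, the called genes of this route were lower. Of 11 tested genes of precursor transport and turnover, 3 were lower and 2 higher in the mean of the days, close to the shares of all tested genes. Nt5e, Slc29a1 and Nudt12 were lower (-0.68, -0.50 and -0.36), and Slc12a8 and Nt5c2 were higher (0.85 and 0.26).

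Of 8 genes of nicotinamide clearance and methyl group supply, the setting in which Nnmt works, 4 were called lower in the mean of the days. Among all tested genes 17.3% were called lower and 19.2% higher. The 4 were Ahcy, Cyp2e1, Gnmt and Mat1a, with log2 fold changes of -0.70, -0.67, -0.54 and -0.28. The number of the 8 that were higher was 0 by edgeR, by DESeq2 and at an unadjusted p under 0.05. Of 16 genes of NAD-consuming enzymes, 6 were lower and 5 higher in the mean of the days, against 17.3% and 19.2% of all tested genes. In that mean Bst1, Sarm1, Parp3 and Parp4 were higher (0.97, 0.49, 0.26 and 0.23), and Sirt3 and Sirt1 were lower (-0.36 and -0.20). Sirt3, the mitochondrial deacetylase, was called lower at days 3 and 6 (-0.52 and -0.48; adjusted p = 0.0136 and 0.0119). Bst1, an NAD glycohydrolase, was at 2.02 at day 6 (SE 0.57; adjusted p = 0.0157), from a mean level of -1.02 log2 CPM. The median log2 fold change in the mean of the days was -0.29 for the tryptophan route and 0.01 for the consumers, beside -0.24 for the 9 genes other than Nmrk2 and -0.01 for all tested genes.

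Markers of liver cell types moved with genotype beside these genes. Of 10 hepatocyte markers, 3 were called lower in HNKO in the mean of the days (Alb, Ttr and F2), against 17.3% of all tested genes, and DESeq2 called 5 lower. Lower at an unadjusted p under 0.05 were 6 of the 10, where 9090 of the 20297 tested genes passed in either direction. The median log2 fold change of the 10 markers was -0.22, and none of them was at 0 in any library. Their summed level had group medians of 128660 to 141511 CPM in WT and 99230 to 113984 CPM in HNKO, with Alb the most abundant. Single HNKO libraries, such as 4 and 36 at 138748 and 134071 CPM, lay within the range of the WT libraries of their day. The lowest HNKO sums at days 3, 6 and 21 were those of libraries 23, 29 and 37, at 81838, 69352 and 91031 CPM. Leaving out these libraries moved several values given above, and the part of the hepatocyte level in this was not tested. In the same mean of the days 19.2% of all tested genes were called higher. Of 7 cholangiocyte markers, 6 were called higher, with group medians of the sum from 49.2 to 53.8 CPM in WT and 179 to 300 CPM in HNKO and Spp1 the most abundant. Of 8 stellate cell and fibroblast markers, 7 were called higher. Their group medians were 323 to 391 CPM in WT and 495 to 706 CPM in HNKO, with Dcn or Col3a1 the most abundant. Libraries 2 and 23 of HNKO at day 3, where Nnmt was low, held 994 and 1124 CPM of these markers. The rest of that group held 278 to 565 CPM. For the cholangiocyte markers this pair held 415 and 386 CPM, and the rest 121 to 300 CPM. The macrophage sums of the pair were 461 and 560 CPM, and those of the rest 493 to 635 CPM. The relation of these sums to Nnmt was not tested. Of 8 macrophage markers, 6 were called higher in the mean of the days, and 1, 4, 1 and 1 at days 3, 6, 12 and 21, against 2.95%, 8.42%, 4.56% and 2.21% of all tested genes. The macrophage medians were 341 to 556 CPM in WT and 483 to 788 CPM in HNKO, with Cd5l the most abundant, and at day 3 the HNKO median was the lower, at 500 against 556 CPM. None of these 3 lists had a marker at 0, apart from 1 cholangiocyte marker in WT at day 12.

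Of 6 endothelial markers 1 was called lower in the mean of the days, with medians of 507 to 555 CPM in WT and 474 to 539 CPM in HNKO and Stab2 the most abundant. The neutrophil markers S100a8, S100a9 and Csf3r were called higher in the mean of the days and at day 6, and Retnlg passed the filter only through HNKO libraries 7, 29 and 30. Neutrophil sums had medians of 3.78 to 5.59 CPM in WT and 6.06 to 22.9 CPM in HNKO, Csf3r the most abundant, and up to 2 of 5 at 0. Of 3 tested adipocyte markers edgeR and DESeq2 called 0 in the mean of the days, with 0 at an unadjusted p under 0.05. At day 3 all 3 were lower at an unadjusted p under 0.05 and DESeq2 called 1 lower, while at day 12 the unadjusted count was 1, higher. At that threshold 4235 and 4965 of the 20297 tested genes passed at days 3 and 12, in either direction. The day 3 values rest on WT library 26 at 21.5 CPM, where the other WT libraries of that day held up to 0.14 CPM and HNKO libraries up to 0.09 CPM. Adipocyte sums had medians of up to 1.0 CPM in WT and 2.92 CPM in HNKO, Adipoq or Cfd the most abundant, and up to 4 of 4 at 0. The part of these cell types in the differences of the salvage genes was not tested.

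The 10 genes lie on 7 mouse chromosomes in GRCm38. Nampt (ENSMUSG00000020572.8) spans chr12:32819545-32853349 on the plus strand, in 13 exonic blocks of 5054 bases. The lincRNA Gdap10 lies on the same strand as Nampt with 0 shared exonic bases and a median of 570.5 counts. Gdap10 and Nampt varied together with r of 0.79, while Gdap10 was not called at any day, with log2 fold changes of -0.47, 0.08, 0.36 and -0.03. Nadk2 (ENSMUSG00000022253.15) spans chr15:9071260-9110891 on the plus strand. Naprt (ENSMUSG00000022574.7) lies on the same chromosome at chr15:75890956-75894481 on the minus strand. Nmnat1 (ENSMUSG00000028992.13) and Nadk (ENSMUSG00000029063.16) share chromosome 4, at chr4:149467572-149485202 and chr4:155562378-155591001. Nmnat3 (ENSMUSG00000032456.13) and Nnmt (ENSMUSG00000032271.13) share chromosome 9, at chr9:98287435-98420438 and chr9:48591877-48605153. Nmrk1 (ENSMUSG00000037847.14) is at chr19:18631950-18652428, Nmrk2 (ENSMUSG00000004939.7) at chr10:81198170-81202051 and Nadsyn1 (ENSMUSG00000031090.14) at chr7:143795584-143822849. Nmrk1 and Nmnat1 share 3.22% and 4.64% of their stretches of 51 bases with other annotated exons, and Nampt, Nmnat3, Nadsyn1, Nadk, Nadk2 and Nnmt share 0%.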

How the data were processed

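The counts were deposited by the authors, who aligned reads with STAR 2.7.2b and counted fragments per gene with featureCounts 1.6.4 on a GENCODE annotation. The strand setting of the counting is not stated. Ensembl ids were matched to symbols with GENCODE M21, and 55394 of 55487 had one. Genes were kept with filterByExpr (minimum count 10, total 15, proportion 0.7), scaled by TMM and tested with quasi-likelihood F tests in edgeR 4.0.16 (R 4.3.3) over 8 groups of 38 libraries, with p-values adjusted by Benjamini and Hochberg at 0.05. Log2 CPM used a prior count of 2. Averaged, interaction and day contrasts came from the same fit. Fold changes of Nmrk2 are not given because most groups were at 0 and it passed the filter only through HNKO libraries. Correlations used deviations from group means and are descriptions. The clock score is the mean standardised level of Arntl, Npas2 and Clock minus that of Dbp, Per1, Per2, Per3, Nr1d1, Nr1d2, Tef and Ciart. No 2 libraries of a group were identical (74 pairs). The procedure was tested on simulated data.

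Alternatives were DESeq2 1.42.0, RLE scaling, other filters, all 40 libraries, the edgeR 4 computation, label series or clock score as covariates, fits of 1 day, a prior count of 0.5, and each library left out. Leaving out libraries 8, 10 and 16, or the 7 libraries with muscle transcripts, was chosen after seeing the data. The 10 genes were all named. From the lists, genes called at 2 or more days or in the averaged contrast were named, at most 6 a list, and for each of the 9 genes other than Nmrk2 the 3 nearest by correlation among genes averaging 1 log2 CPM or more. The genes and lists were chosen with earlier results of these data known.

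Of the planned marker lists, 1 is not reported here.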

Additional observations from a re-analysis of the deposited data

Results flagged for a closer look

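Among 65 groups of 4 to 6 libraries tested for 1 library far from the others, 7 had one, leaving out the Nmrk2 groups with 0 counts in every library. Chance alone gives about 1 in 20 groups where the groups do not depend on each other, while here Nampt and Nmrk1 varied together and library 16 counts for both. Nampt in WT at day 12 was at 7.24 log2 CPM in library 16, and the next library was at 6.12. Nmrk1 in the same group was at 5.67 log2 CPM in library 16, and the next was at 4.38. Both values belong to a library that also stood apart in Arntl and Dbp. Nmrk1 in HNKO at day 3 was at 4.42 log2 CPM in library 23, and the next was at 4.14. Nmrk2 in WT at day 21 had 16 counts in library 21, and the next had 1. Nadsyn1 in WT at day 12 was at 4.91 log2 CPM in library 15, above the next at 4.81. Nadsyn1 in HNKO at day 6 was at 4.50 log2 CPM in library 29, below the next at 4.81. Nadk2 in WT at day 12 was at 7.27 log2 CPM in library 14, below the next at 7.51. No gene of the 10 passed the test of a genotype difference that varies with the day in edgeR. At an unadjusted p under 0.05 there were 2 of the 10, beside 966 of the 20297 tested genes.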

How the results depend on the processing

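No paired analysis was possible because library numbers are unique across groups. Over the alternatives other than leaving out 1 library, the log2 fold changes of the 9 genes other than Nmrk2 kept direction and side of the threshold in 442 cases, lost the call in 28, gained it in 6 and changed sign in 10. The number of genes called stayed within 1.5 times in 64 cases and moved in 18. With no filter on low counts it was 1 at day 3, 1 at day 12 and 0 for days in WT. With at least 10 counts in every library it was 2 for days in WT, and at day 12 Nmnat3 was at 0.011 and Naprt at 0.0052. With all 40 libraries it was 1 at day 3, 1 at day 12 and 0 for days in WT. With label series as a covariate it was 1 for days in HNKO, and Nmrk1 was at 0.11 at day 21. With the clock score it was 1 at day 21, and Nmrk1 was at 0.11 at day 3. With the 2 groups of a day alone, which leaves fewer libraries for the spread, it was 1, 2, 0 and 1 on days 3, 6, 12 and 21. Without libraries 8, 10 and 16 it was 1 at day 6, 0 at day 12 and 1 at day 21. There Nmrk1 was at 0.33 at day 6, 0.27 at day 12 and 0.10 in the mean of the days, and Nmnat3 at 0.028 at day 12. Without the 7 libraries with muscle transcripts it was 0 at day 3 and 0 at day 12, with Nmnat3 at 0.0175 at day 12 and Nmrk1 at 0.026 at day 21. Leaving out 8, 10 and 16, or the 7, was chosen after seeing the data. A prior count of 0.5 changed none of the 4 numbers of genes whose groups did not overlap.

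Leaving out 1 library gave 0 to 2, 3 to 5, 0 to 2 and 0 to 0 genes called on days 3, 6, 12 and 21. It gave 5 to 6 in the mean of the days, 0 to 0 for the interaction, 0 to 2 for days in WT and 0 to 1 for days in HNKO. Signs turned for Nmrk1 at day 3 (-0.14 to 0.0066) and day 12 (-0.33 to 0.27) and for Nnmt at day 3 (-0.10 to 0.38). Nnmt ran from 0.22 to 0.62 at day 6, 0.29 to 0.64 at day 12 and 0.08 to 0.87 at day 21 without turning. Leaving out library 37 moved Nmnat1, Nmnat3, Naprt and Nadk2 at day 21 to -0.16, -0.10, -0.15 and -0.14. They also turned at day 12 for Nmnat3 (-0.090 to 0.038) and Naprt (-0.066 to 0.049), and for Nadk at day 21 (-0.12 to 0.011). The cause was not tested for any of these. Of the genes on the lists around NAD and of the clock, 3, 11, 5 and 0 were called on days 3, 6, 12 and 21. Leaving out 1 library gave 0 to 5, 4 to 13, 1 to 8 and 0 to 0 of them. Over the other alternatives these counts stayed within 1.5 times in 28 cases and moved in 16, with 11, 17, 13 and 2 under the clock score covariate.

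The HNKO group of day 21 held 3 libraries, all of label series 2, a split read from the order of the titles and not named as a batch in the labels. The counts are of whole liver, and protein and NAD were not analysed here. Nmrk2 rested on at most 29 counts in a library. The time of day of collection is not given in the sources used here, so its part in the differences between days was not tested. The clock score also varied within a day of feeding, in WT at day 6 from -3.26 to 2.27.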
